A study of Mus musculus with 30 samples.

Results

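The probes of Homer1, Homer2, Homer3 and Grm5 were chosen by gene name from the annotation of the mouse array, and every probe was kept separate. There were 12 such probes for these 4 genes among 41174 on the array, of which 4 read Homer1, 3 Homer2, 1 Homer3 and 4 Grm5, and all 12 passed the filter on dim probes. They were measured in the hypothalamus of 30 mice, described as male, on a C57BL/6 background, 1 array per mouse. The 7 Per3 5/5 mice (labelled Boxhill) and the 8 Per3 4/4 mice (labelled Coach) are knock-in (KI) animals in which 1 exon of mouse Per3 was exchanged for the human PER3 exon carrying 5 or 4 repeats, and the other 15 mice carried the mouse gene (WT). All 3 genotypes descend from conditional founders made in Bruce4 embryonic stem cells; a ubiquitous Cre was crossed in and bred out again, also in the WT mice, and the study describes small genetic contributions from the stem cells. Every mouse lived in 3.5 h of light alternating with 3.5 h of darkness, and brains were taken in the light phase of cycle 17, in a protocol in which light suppresses activity.

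Homer proteins are scaffolds of the excitatory synapse. Their N-terminal EVH1 domain binds a proline-rich motif in group I metabotropic glutamate receptors (mGluRs), among them mGluR5, encoded by Grm5, in Shank proteins and in inositol trisphosphate and ryanodine receptors, and the C-terminal coiled coil of the long forms joins these partners into clusters. Homer1 also gives a short form, Homer1a, which ends within an intron, lacks the coiled coil, is induced by neuronal activity and rises in the brain with time awake, so that it is used as a marker of sleep need. Grm5 encodes the receptor mGluR5, which signals through Gq and phospholipase C to release calcium from internal stores.

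The 12 probes are 60 bases long, and their positions are those of mm9 in the array's annotation, which does not say whether a probe lies in an exon, an intron or a UTR. The 4 Homer1 probes lie on the plus strand of chromosome 13 and are given in the order of their start. A_51_P387159 (94075013 to 94075072) and A_51_P387160 (94075212 to 94111724) are listed under the transcript NM_011982 and the second covers far more of the genome than its 60 bases, so that it crosses an intron. It also holds the start codon of the Homer1 reading frame. A_52_P37991 (94129858 to 94129917) is listed under the Ensembl transcript ENSMUST00000102752, and each of its forward reading frames holds a stop codon. A_52_P151211 (94173265 to 94173324) is listed under NM_152134 and NM_147176. The annotation does not say which of these transcripts is the short form. The sequences are shown because the results are given probe by probe. The first or last 30 bases are printed, 5′ to 3′, with the start codon in capitals.
A_51_P387159, first 30 bases: aagtgctatattctccgcgcaaccttttca
A_51_P387160, last 30 bases: cattgggcaaaATGggggagcaacctatct
A_52_P37991, first 30 bases: tcattagaccctaatagaccaagttatatg
A_52_P151211, first 30 bases: tcaaacttcacaaggctatattttgaactg

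Homer2 is read on the minus strand of chromosome 7 by A_52_P343298 (88747163 to 88747222), the most 3′ of its probes, by A_51_P352303 (88756199 to 88756258) and by A_52_P176573 (88763566 to 88769161), which spans an intron. Homer3 is read by A_51_P466613 (chromosome 8, 72817724 to 72817783, plus strand). Grm5 lies on the plus strand of chromosome 7, with A_52_P675611 (94751387 to 94751446) and A_52_P181394 (94751530 to 94751589) towards its 5′ side and A_51_P465591 (95280099 to 95280158) and A_51_P333441 (95280993 to 95281052) towards its 3′ side. The Grm5 probes are shown because their values are given by side. Each of them has a forward reading frame that is open over its whole length. At A_51_P465591 all 3 frames are open, so an open frame does not show that a probe is coding. The probes of the 5′ side are printed in full.
A_52_P675611: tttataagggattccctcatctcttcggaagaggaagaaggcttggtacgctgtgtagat
A_52_P181394: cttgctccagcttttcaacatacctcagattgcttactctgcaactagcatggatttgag
A_51_P465591, first 30 bases: aaccaagaaaaccagtgcaagatttctgga
A_51_P333441, first 30 bases: agaaggaggtattctataaatttaaagttc

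Levels are log2 spot intensities relative to the 75th percentile of the array, and they say how bright a probe was, not how many molecules there were, so that the level of 1 probe was not read against that of another. Differences between Homer1 probes were taken within arrays and only compared between groups. The arrays fell into 2 runs, told apart by the format of their files. Run 1 held the Per3 5/5 mice and WT replicates 1 to 7, run 2 held the Per3 4/4 mice and WT replicates 8 to 15, and levels were compared within a run. Before scaling, that percentile lay between intensities of 347 and 1546, and 58.6% to 74.6% of spots were well above background. Precision is limited by how many arrays there were. Of 12 hypothalamic marker genes, such as Oxt, Hcrt and Avp, 11 were well above background on every array of run 1 and 10 on every array of each group of run 2, while Otp was so on 0 of 30 arrays. One WT array of run 2, replicate 10, stood apart. It was the lowest of its group in the mean level of the hypothalamic markers (-0.97, next 0.76) and of the thalamic ones, and the highest in those of striatum (0.93, next -0.15) and of cortex and hippocampus. Per3 4/4 replicates 6 and 7 lacked signal well above background for Ddx3y, Eif2s3y, Kdm5d and Uty, which lie on the Y chromosome, and of the Per3 4/4 arrays these 2 had Xist well above background (highest level 1.78), so that they go against the description as male. Xist was also well above background on 1 WT array of run 2 (-4.47), where those Y-linked genes other than Uty were so on all 8. Results of run 2 that rest on these arrays are also given without replicate 10 or without replicates 6 and 7 where that moved them. In bulk RNA, fewer cells of a type and less RNA per cell cannot be told apart, and p-values measure the spread between the mice of these groups. The limma fits took 1 spread per probe from all 30 arrays. Standard errors, intervals and p-values of run 1 therefore also carry the spread of run 2, with WT replicate 10 in it.

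Homer1 lay lower in the Per3 5/5 than in the WT mice at all 4 probes, with differences between -0.81 and -0.19 on the log2 scale that did not pass after adjustment. On the log2 scale A_51_P387159 had levels of -2.82, -2.11 and -1.73 (lowest, median and highest) in the Per3 5/5 mice and -2.04, -1.47 and -1.35 in the WT mice of run 1. The means were -2.20 ± 0.40 (SD, n = 7) and -1.61 ± 0.30 (SD, n = 7), and 4 of the 7 Per3 5/5 mice lay below the lowest WT mouse while the other 3 overlapped with the WT range. The difference was -0.59 (standard error 0.23, 95% interval -1.06 to -0.13), which is 1.51-fold lower. By limma it had an unadjusted p of 0.0143 and an adjusted p of 0.796, so it did not pass an adjusted p of 0.05.

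The neighbouring probe with the start codon, A_51_P387160, had levels of -2.75, -2.25 and -1.87 in the Per3 5/5 mice and -2.09, -1.61 and -1.41 in the WT mice. All 7 Per3 5/5 mice lay below the WT mean and 5 below the lowest WT mouse. The difference was -0.52 (standard error 0.22, 95% interval -0.97 to -0.08), 1.44-fold lower (limma, unadjusted p = 0.0232, adjusted p = 0.796). These were the 2 member probes with an unadjusted p under 0.05 in this comparison, in which 6.17% of the 29947 probes tested reached that level and 0% passed after adjustment. A fit on the arrays of run 1 alone gave an unadjusted p of 0.00449, 0.00203 and 0.0215 at the first 3 Homer1 probes (limma). At Grm5 A_51_P465591 it gave 0.0330. In that fit 3272 of the 29947 probes were under 0.05, and each of these member probes had an adjusted p of 0.455. With 3 arrays of run 2 left out of the fit, WT replicate 10 among them, 3 member probes had an unadjusted p under 0.05. All of these were lower and 0 passed, and 2138 of the 29947 probes had such a p in that fit.

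Among the 4 probes A_52_P37991 had the largest difference and the largest spread. Its levels were -3.82, -3.27 and -2.16 in the Per3 5/5 mice and -3.47, -2.25 and -1.55 in the WT mice, with 2 Per3 5/5 mice below the WT range and 5 within it. The difference was -0.81 (standard error 0.42, 95% interval -1.67 to 0.05), 1.75-fold lower (limma, unadjusted p = 0.0647, adjusted p = 0.796). At the most 3′ probe, A_52_P151211, the groups overlapped more widely, with levels of -1.53, -1.22 and -0.70 in the Per3 5/5 mice and -1.36, -1.05 and -0.66 in the WT mice. The difference there was -0.19 (standard error 0.25, 95% interval -0.71 to 0.32, adjusted p = 0.953 by limma). Each slide held both genotypes, and within the 4 slides of run 1 the difference was below 0 in 4 of 4 for the first 3 probes and in 3 of 4 for A_52_P151211.

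**Figure D1:**
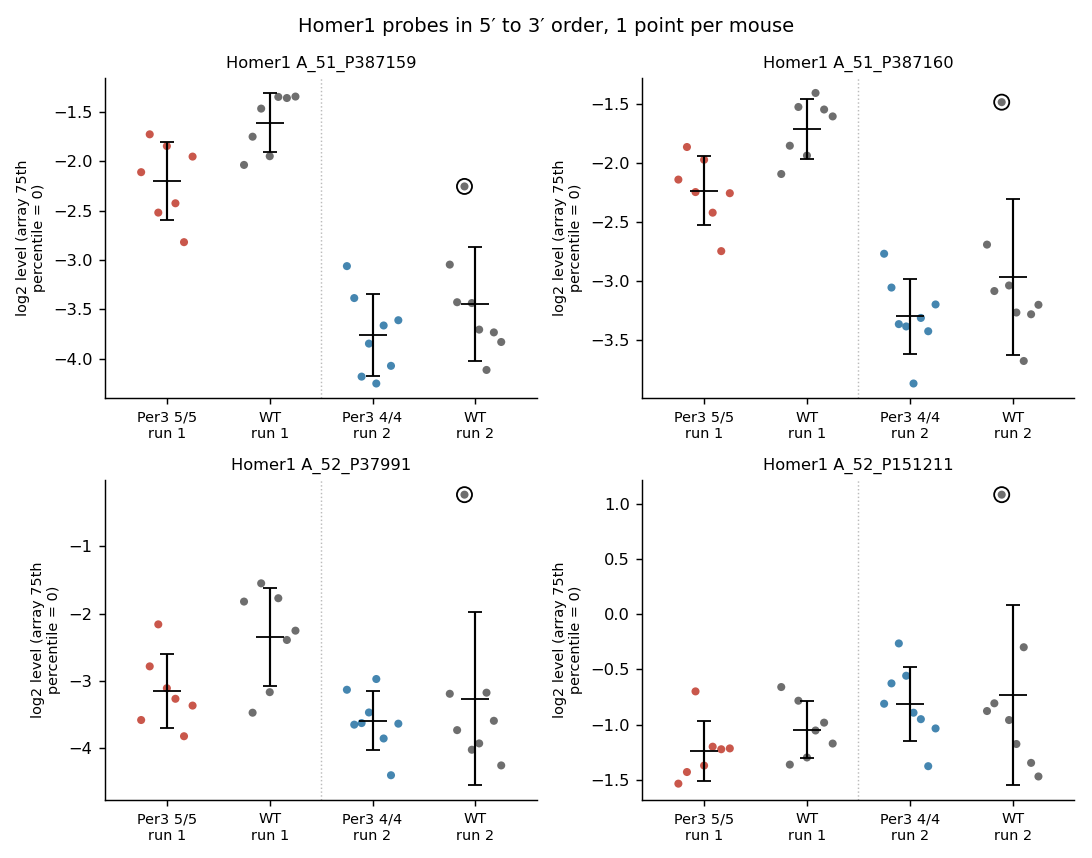
Levels of the 4 Homer1 probes on the log2 scale relative to the 75th percentile of each array, 1 point per mouse, with bars for the mean ± SD of each group; red is Per3 5/5, blue Per3 4/4 and grey WT, and WT replicate 10 of run 2 is circled. At A_51_P387160, 5 of the 7 Per3 5/5 mice lie below every WT mouse of run 1, and the circled mouse lies far above its group at A_52_P37991 (-0.23).

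In the Per3 4/4 mice the Homer1 differences lay between -0.33 and -0.08 and depended on WT replicate 10. A_51_P387159 had levels of -4.25, -3.76 and -3.06 in the Per3 4/4 mice and -4.12, -3.57 and -2.26 in the WT mice of run 2, and A_51_P387160 had -3.87, -3.34 and -2.77 against -3.68, -3.14 and -1.49. Most of the Per3 4/4 mice, 6 of 8 and 7 of 8, lay below the WT mean, but only 2 and 1 below the lowest WT mouse. The differences were -0.32 (standard error 0.21, 95% interval -0.75 to 0.12) and -0.33 (standard error 0.20, 95% interval -0.75 to 0.09). Without WT replicate 10 they were -0.15 and -0.12.

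At A_52_P37991 the Per3 4/4 mice had levels of -4.40, -3.63 and -2.97 and the WT mice -4.26, -3.66 and -0.23, the last being replicate 10. The medians of the 2 groups were thus nearly equal, and the difference of -0.33 (standard error 0.39, 95% interval -1.13 to 0.48) turned to 0.11 without that array. A_52_P151211 had levels of -1.38, -0.85 and -0.27 in the Per3 4/4 mice and -1.47, -0.92 and 1.08 in the WT mice, where replicate 10 was again the highest. Its difference of -0.08 (standard error 0.24, 95% interval -0.57 to 0.40) turned to 0.18 without replicate 10. None of the 4 probes passed by limma (unadjusted p 0.117 to 0.730, adjusted p = 1.00), and 0 of the 12 member probes had an unadjusted p under 0.05, against 1.73% of all probes tested. After adjustment 0.0134% of all probes passed in this comparison.

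Whether the 5′ and 3′ sides of Homer1 differed unequally was tested within arrays. The mean of the 2 probes with the lower coordinates minus that of the 2 with the higher ones averaged -0.02 ± 0.49 (SD, n = 7) in Per3 5/5 mice, while WT mice had 0.04 ± 0.48 (SD, n = 7), a difference of -0.06 (exact permutation test, two-sided p = 0.823). In run 2 Per3 4/4 mice had -1.32 ± 0.47 (SD, n = 8), while WT mice had -1.21 ± 0.64 (SD, n = 8), a difference of -0.12 (exact permutation test, two-sided p = 0.685), which was -0.27 without WT replicate 10 (exact permutation test, p = 0.284). No inequality between these pairs was thus found at this number of mice. In Per3 5/5 the pair with the higher coordinates averages the largest and the smallest of the Homer1 differences (-0.81 and -0.19). A difference at 1 of its probes alone could therefore be missed. Each probe was also set against the mean of the other 3. A_52_P151211 stood 0.45 higher relative to the others in Per3 5/5 than in WT (exact permutation test, two-sided p = 0.0443, adjusted over 8 tests p = 0.354), and A_52_P37991 stood 0.37 lower (exact permutation test, p = 0.211, adjusted p = 0.625), and neither passed after adjustment. The other 6 of these tests gave differences between -0.09 and 0.24, and the largest of them was again that of A_52_P151211, in Per3 4/4 (exact permutation test, p = 0.234, adjusted p = 0.625).

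Among mice of the same group the 4 Homer1 probes formed 2 pairs. Deviations of A_51_P387159 and A_51_P387160 from the group mean followed one another over the 30 arrays (Pearson's r = 0.935, Spearman's rho = 0.918, permutation p = 1e-05, the smallest the resamples can give, adjusted p = 0.00026 over 26 relations). With the 2 arrays farthest from the median set aside r was 0.914, and within runs 1 and 2 it was 0.925 and 0.948. A_52_P37991 and A_52_P151211 were related likewise (r = 0.842, rho = 0.679, permutation p = 2e-05, adjusted p = 0.00026), with r = 0.656 without the 2 farthest arrays, 0.744 in run 1 and 0.884 in run 2. Across the pairs the relations rested on the farthest arrays, of which WT replicate 10 was always 1. Their r lay between 0.357 and 0.659 over 30 arrays and between -0.09 and 0.37 without those 2 arrays.

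**Figure D2:**
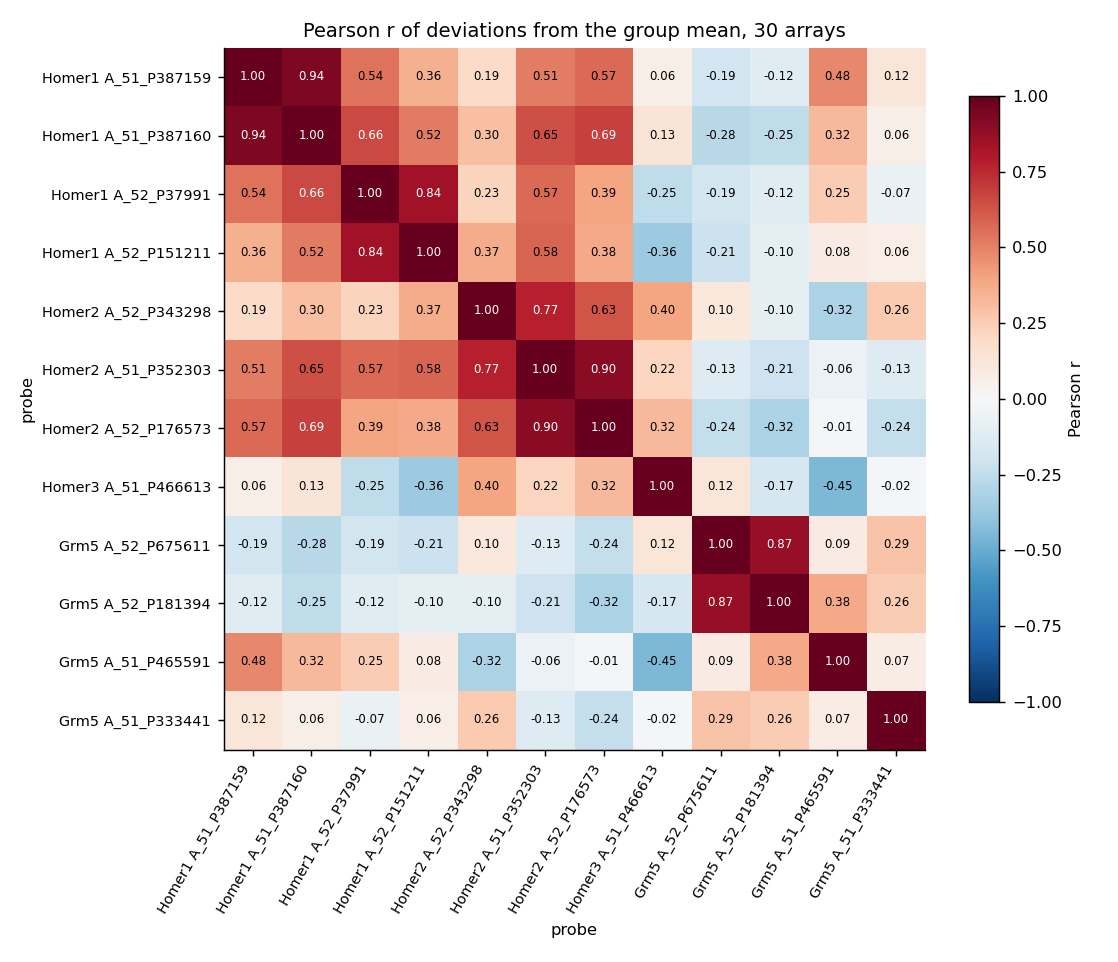
Pearson's r between the 12 member probes over 30 arrays, computed on deviations from the mean of each group within its run; rows and columns are probes in the order of the text and colour gives r. The Homer1 probes form 2 pairs (0.935 and 0.842), Homer2 probes vary together (0.631 to 0.903), and of the Grm5 probes those of the 5′ side do (0.871).

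The second pair varied among mice with genes that neurons switch on when active. The list of such genes held 25, of which 23 were tested, among them the transcription factors Fos, Egr1 and Npas4, the synaptic gene Arc and the prostaglandin synthase gene Ptgs2. The mean level of these 23 genes and A_52_P37991 were related over the 30 arrays (r = 0.893, rho = 0.714, permutation p = 5e-05, adjusted p = 0.000433). The relation held without the 2 farthest arrays, WT replicates 10 and 2 (r = 0.721), and in each run (r = 0.830 and 0.917). For A_52_P151211 r was 0.773 (rho = 0.573, permutation p = 0.00249, adjusted p = 0.0105), 0.404 without the 2 farthest arrays, 0.814 in run 1 and 0.770 in run 2. At the first pair r was 0.558 for A_51_P387159 and 0.699 for A_51_P387160, and both rested on the farthest arrays, without which r was 0.169 and 0.258. In run 1 these 2 probes had an r of -0.05 and 0.12 with the list. The genes of the list did not all move alike. Taken singly, they had an r from -0.16 to 0.91 (median 0.56) with A_52_P37991. With A_52_P151211 it ran from -0.50 to 0.86 (median 0.59). Bdnf, Nptx2 and Sik1 were below 0 with both probes.

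**Figure D3:**
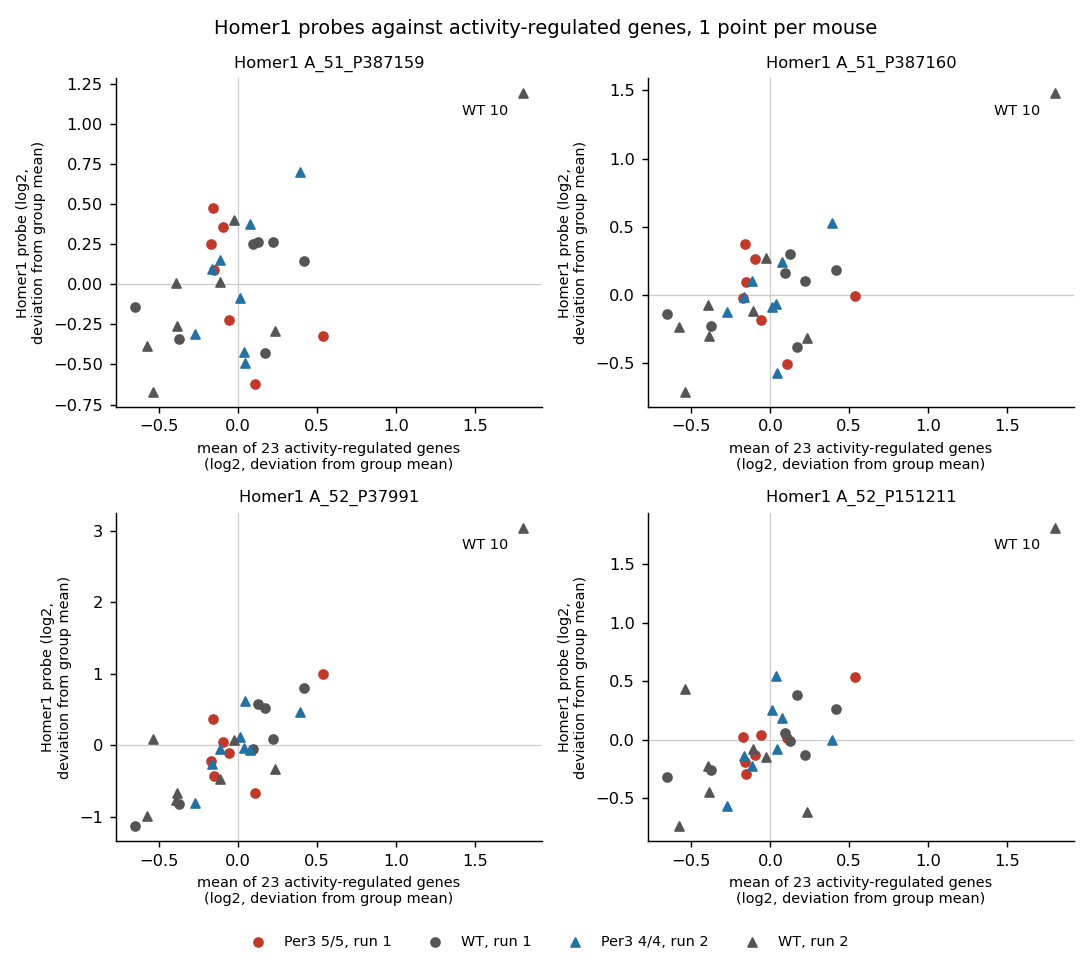
Deviation of each Homer1 probe from its group mean (log2, y axis) against that of the mean of 23 activity-regulated genes (log2, x axis), 1 point per mouse, with circles for run 1, triangles for run 2 and WT replicate 10 labelled. Points of A_52_P37991 lie along a line (r = 0.893), which is also seen without the 2 farthest arrays (r = 0.721), whereas those of A_51_P387159 do not once these are set aside (r = 0.169).

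Cortical and hippocampal markers, of which 8 of 8 were tested, moved with the Homer1 probes as well. Over the 30 arrays r was 0.610, 0.685, 0.597 and 0.533, in the order of the probes (adjusted p 0.00143 to 0.0271), and 0.345, 0.550, 0.377 and 0.319 without the 2 farthest arrays. Spearman's rho was 0.522, 0.604, 0.468 and 0.410 (adjusted permutation p 0.0207, 0.00533, 0.0521 and 0.0896), so the second pair did not pass by rank. In run 1 r was -0.04 and 0.08 at the first pair and 0.712 and 0.744 at the second, and in run 2 0.894, 0.889, 0.549 and 0.494. At the second pair rho in run 2 was 0.218 and 0.274. The log2 level of these markers summed on the linear scale ranged from 4.49 to 5.80 in Per3 5/5, from 2.28 to 6.02 in the WT mice of run 1, from 3.86 to 5.54 in Per3 4/4 and from 3.73 to 6.28 in the WT mice of run 2, and 7, 7, 4 and 6 of the 8 genes were well above background on every array of these groups. Their part in the Homer1 differences was not tested. Striatal markers gave r between 0.537 and 0.736, which fell to between 0.09 and 0.28 without the farthest arrays, and thalamic markers between -0.47 and -0.26, none of the latter with an adjusted p under 0.05. Both differed by run. In the order of the probes, striatal r was -0.36, -0.22, 0.49 and 0.74 in run 1. In run 2 it was 0.71, 0.86, 0.65 and 0.60. Thalamic r was 0.70, 0.73, 0.44 and 0.04 in run 1 and -0.40, -0.45, -0.61 and -0.32 in run 2. Without the 2 farthest arrays the thalamic values were 0.01, 0.14, -0.16 and 0.33. The share of spots well above background, added to these relations after the data had been seen, was not found to be related to any Homer1 probe (adjusted p 0.248 to 0.812).

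By the likeness of their deviations, the 5 probes of other genes closest to A_52_P37991 among 29813 were those of A930038C07Rik (r = 0.921), Egr1 (0.914), Arhgef17 (0.913), Psrc1 (0.907) and 3110035E14Rik (0.887). Egr1 encodes an immediate early transcription factor and is on the list of activity-regulated genes. For A_52_P151211 they were Lrp8 (0.924), which encodes a reelin receptor, Rab40b (0.921), Nip7 (0.912), an unnamed transcript (0.909) and Arhgef3 (0.906). The first pair had other neighbours. A_51_P387160 was most like Tpm1 (0.909), Dlgap1 (0.880), Tnni3 (0.879), Ppp1r12b (0.878) and Lzts1 (0.864), and of these Dlgap1 encodes a scaffold that joins Shank proteins to PSD-95. Probes like A_51_P387159 included those of Ppp1r12b (0.882), an unnamed sequence (0.861), Hist1h1d (0.844) and Eml5 (0.833). These are descriptions over 30 arrays that share the same hybridizations.

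The promoter of Homer1 is shown because transcription of genes that neurons induce can run through the factor CREB, whose binding element has the core TGACGT. In the RefSeq table of GRCm38.p6 the 250 bases before the first annotated start (chr13:93303507-93303756, plus strand) hold 3 copies of this core, counted on both strands and printed in capitals.
Homer1 promoter: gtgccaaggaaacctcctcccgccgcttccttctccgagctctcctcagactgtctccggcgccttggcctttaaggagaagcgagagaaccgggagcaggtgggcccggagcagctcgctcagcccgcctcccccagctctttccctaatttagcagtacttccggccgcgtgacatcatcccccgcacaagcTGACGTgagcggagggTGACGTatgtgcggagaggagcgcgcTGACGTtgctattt
Of 32851 such promoters, 6.47% held at least 1 copy and 0.152% at least 3. The second Homer1 promoter of the table, both Homer2 promoters and the Homer3 promoter held 0 copies. Of the activity-regulated genes, 9 of the 18 with a promoter in the table had at least 1. Each of these genes was counted by its promoter with the most copies, whereas the share over all promoters counts every promoter singly, so the 2 shares are not alike. A match of letters is no evidence of binding.

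The array carries probes of other transcripts within Homer1, which were looked up after the positions were seen. AK047428 was well above background on 0 of 30 arrays and AK085781 on 1. AK035139, on the plus strand and 2853 bases beyond A_52_P37991, was well above background on 18 arrays, 14 of them in run 1. Its deviations had an r of 0.536 with those of A_52_P37991, and its Per3 5/5 mice differed from WT by -0.53 (standard error 0.36, adjusted p = 0.834 by limma) and its Per3 4/4 mice by 0.10. In run 2 only 2 of 8 arrays of each group were well above background, so the second value rests on levels near background.

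Homer2, which encodes a long-form scaffold, lay below WT at all 3 probes in the Per3 5/5 mice, with differences between -0.34 and -0.15, none of which passed. With array weights the values were -0.0359 at A_52_P343298 and -0.12 at A_51_P352303. A_52_P343298 had levels of -3.55, -3.16 and -2.58 in Per3 5/5 and -3.14, -2.92 and -2.06 in WT, with 4 of 7 Per3 5/5 mice below the WT range. Its difference was -0.34 (standard error 0.24, 95% interval -0.83 to 0.15). A_51_P352303 had levels of 0.30, 0.72 and 0.98 against 0.50, 0.82 and 1.26, a difference of -0.23 (standard error 0.20). The ranges overlapped for 5 of 7 mice. A_52_P176573 had levels of -1.59, -1.32 and -1.04 against -1.61, -1.15 and -0.78, a difference of -0.15 (standard error 0.26), and all 7 Per3 5/5 mice lay within the WT range. Adjusted p by limma were 0.843, 0.890 and 0.980, and none of the 3 passed.

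The Homer2 probes of the Per3 4/4 mice were spread evenly about the WT mean, with 4 mice of 8 below it at each probe. Levels of A_51_P352303 were -0.32, 0.48 and 0.74 in Per3 4/4 and -0.11, 0.43 and 1.495 in WT, and the highest was replicate 10. Its difference was -0.11 (standard error 0.18, 95% interval -0.48 to 0.27). The other 2 differed by -0.02 each (95% intervals -0.48 to 0.44 at A_52_P343298 and -0.51 to 0.46 at A_52_P176573). Without WT replicate 10 the 3 differences were 0.08, 0.04 and 0.14. Within groups the Homer2 probes varied together (r 0.631 to 0.903 over 30 arrays) and with Homer1 to differing degrees (0.192 to 0.686). The 5 probes most like A_51_P352303 were those of Mgll (r = 0.864), which encodes a lipase of endocannabinoids, an unnamed transcript (0.861), the exchange factor gene Kalrn (0.859), Spata2L (0.856) and the cortical and hippocampal marker Slc17a7 (0.853), a vesicular glutamate transporter.

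Homer3, a scaffold best known from Purkinje cells of the cerebellum, did not pass in either comparison. Its probe had levels of -2.25, -2.08 and -1.89 in Per3 5/5 and -2.25, -2.06 and -1.48 in WT, and all 7 Per3 5/5 mice lay within the WT range. The difference was -0.13 (standard error 0.25, 95% interval -0.63 to 0.37, adjusted p = 0.987 by limma). In run 2 the levels were -3.38, -2.49 and -1.26 in Per3 4/4 and -3.07, -2.22 and -0.91 in WT, a difference of -0.26 (standard error 0.23, 95% interval -0.73 to 0.21, adjusted p = 1.00 by limma). The deviations of Homer3 had an r between -0.360 and 0.128 with those of Homer1 and were most like those of Nckap5l (0.930), the CREB coactivator gene Crtc3 (0.929), Ccnk and Aplp1 (0.927 each) and Nacc1 (0.925). In the RefSeq table Homer3 and Ddx49 overlap by 1496 bases on opposite strands. The Ddx49 probe, 866 bases from that of Homer3, differed by 0.16 in Per3 5/5 and by -0.07 in Per3 4/4, and had an r of 0.420 with it.

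**Figure D4:**
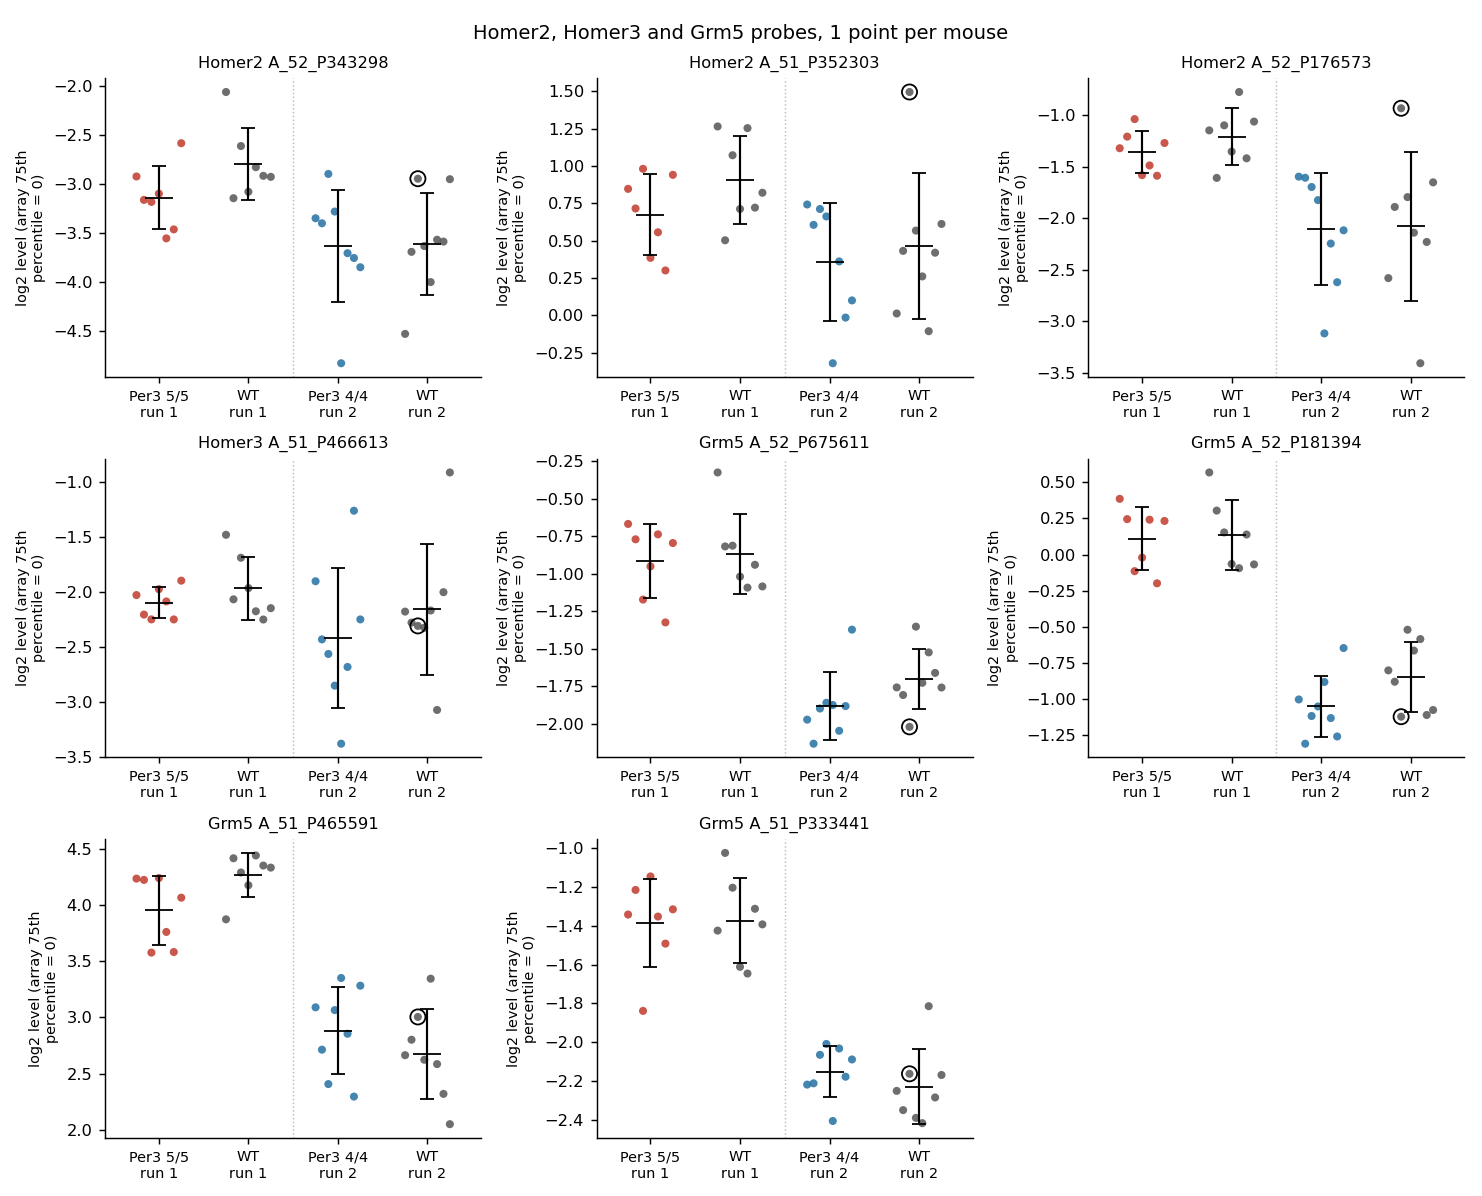
Levels of the 3 Homer2 probes, the Homer3 probe and the 4 Grm5 probes on the log2 scale relative to the 75th percentile of each array, 1 point per mouse, with bars for the mean ± SD; red is Per3 5/5, blue Per3 4/4 and grey WT, and WT replicate 10 is circled. Groups of a run overlap at every probe, and at Grm5 A_51_P465591 all 7 Per3 5/5 mice lie below the WT mean of 4.27.

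In the Per3 5/5 mice Grm5 had differences between -0.05 and -0.01 at 3 of its 4 probes and of -0.31 at A_51_P465591, on the 3′ side, and none passed. A_51_P465591 had levels of 3.58, 4.06 and 4.24 in Per3 5/5 and 3.87, 4.33 and 4.44 in WT. All 7 Per3 5/5 mice lay below the WT mean and 3 below the lowest WT mouse. The difference was -0.31 (standard error 0.18, 95% interval -0.68 to 0.05, unadjusted p = 0.0882, adjusted p = 0.806 by limma), and it was below 0 within 4 of 4 slides. In the Per3 4/4 mice the same probe had levels of 2.30, 2.96 and 3.35 against 2.05, 2.64 and 3.34 in WT, with 6 of 8 mice above the WT mean and a difference of 0.21 (standard error 0.17, 95% interval -0.13 to 0.55).

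The remaining Grm5 probes had Per3 5/5 differences of -0.05 (A_52_P675611), -0.02 (A_52_P181394) and -0.01 (A_51_P333441), with 95% intervals that together ran from -0.31 to 0.24. Their groups overlapped almost wholly, as at A_51_P333441, with levels of -1.84, -1.34 and -1.15 in Per3 5/5 and -1.65, -1.39 and -1.02 in WT. In Per3 4/4 both probes of the 5′ side lay lower, with 7 of 8 mice below the WT mean at each. A_52_P181394 had levels of -1.31, -1.09 and -0.65 against -1.13, -0.84 and -0.52, a difference of -0.21 (standard error 0.12, 95% interval -0.45 to 0.04, unadjusted p = 0.0952, adjusted p = 1.00 by limma). A_52_P675611 had -2.13, -1.89 and -1.37 against -2.02, -1.74 and -1.35, a difference of -0.18 (standard error 0.12). A_51_P333441 on the 3′ side had -2.41, -2.13 and -2.01 against -2.42, -2.27 and -1.81, a difference of 0.08 (standard error 0.10) with 7 of 8 mice above the WT mean. Within groups the probes of the 5′ side had an r of 0.871 over 30 arrays, and the lowest r between 2 Grm5 probes was 0.074. With Homer1 probes r lay between -0.276 and 0.478. The probes most like A_51_P465591 were those of Mtrr (0.855), Fbrsl1 (0.853), Cdkal1 (0.845), Son (0.839) and AK048095 (0.837). A further probe within Grm5, of AK048001, was well above background on 10 arrays, all in run 1. These were 4 of 7 Per3 5/5 arrays (median level over the 7 arrays -5.12) and 6 of 7 WT arrays (median -5.14), and no difference is given, since part of its values lie near background.

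Across the 12 probes, 12 of 12 differences of Per3 5/5 from WT were below 0, with a median of -0.21, where 54.5% of all probes tested were below 0 with a median of -0.02. Leaving out single arrays or changing the processing left between 8 and 12 below 0. In the Per3 4/4 mice 10 of 12 were below 0, with a median of -0.14, where the share over all probes was 48.3% and the median 0.01. Without WT replicate 10 the count was 5 of 12 and the median 0.06, and without Per3 4/4 replicates 6 and 7 they were 7 of 12 and -0.10. The probes of 1 gene share their target, so these counts are not of independent measurements.

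**Figure D5:**
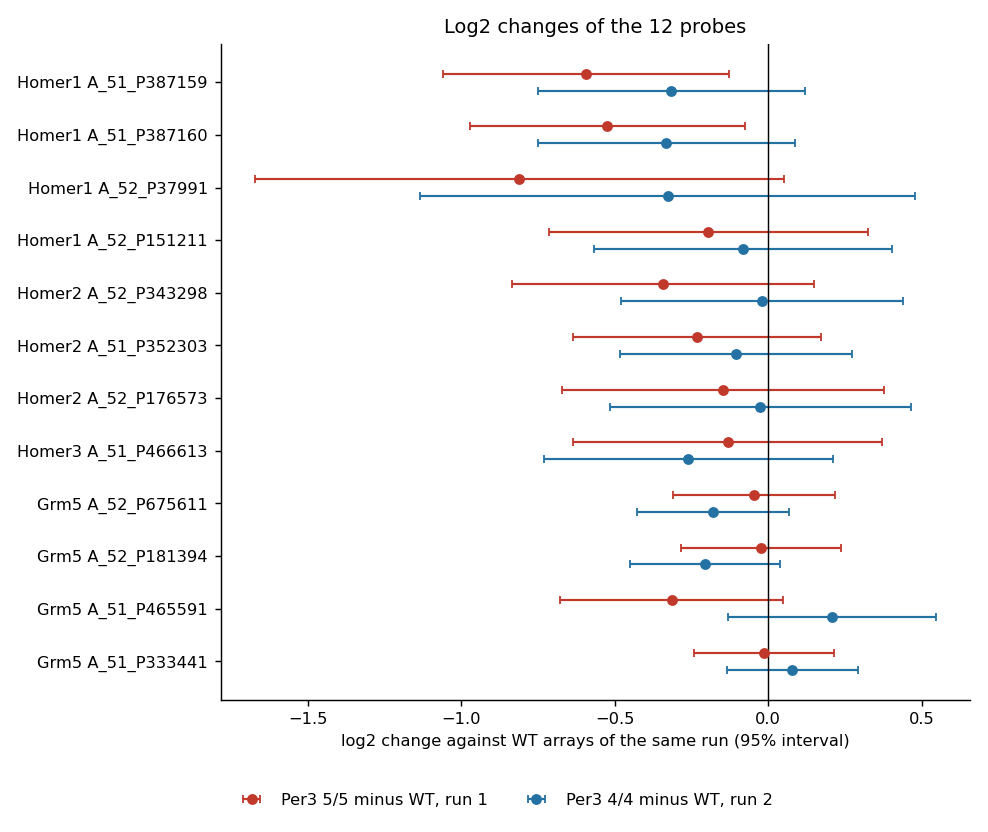
Difference of each member probe from WT of the same run on the log2 scale (points) with its 95% interval from limma (lines), for Per3 5/5 in red and Per3 4/4 in blue; the vertical line marks 0. The intervals of A_51_P387159 and A_51_P387160 in Per3 5/5 are the only ones of the 24 that leave out 0, and none of the 12 probes passed after adjustment in either comparison.

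The effect in the Per3 5/5 mice minus that in the Per3 4/4 mice, each relative to the WT mice of its own run, was below 0 at 9 of the 12 probes, against 53.2% of all probes tested. This difference of the effects passed at 0 of the 12, as at 0% of all probes tested by limma. One member probe, Grm5 A_51_P465591, had an unadjusted p under 0.05, which 2.98% of all probes did, with a difference of the effects of -0.52 (standard error 0.24, 95% interval -1.02 to -0.02, unadjusted p = 0.0405, adjusted p = 1.00). For Homer1 the differences were -0.28, -0.19, -0.48 and -0.11 in the order of the probes, with 95% intervals that together ran from -1.66 to 0.70. The Homer1 differences seen in the Per3 5/5 mice were therefore not shown to be larger than those in the Per3 4/4 mice.

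Of 36 genes of proteins that bind Homer or act with group I mGluRs, 35 had a probe and were tested. By limma none passed after adjustment, in Per3 5/5 or in Per3 4/4. In Per3 5/5, 27 of 35 were below 0, with a median of -0.15, where the share over all probes was 54.5%. With 3 arrays of run 2 left out of the fit, WT replicate 10 among them, 6 of the 35 had an unadjusted p under 0.05, against 2138 of 29947 probes. With all arrays such a p was found for 3 of the 35 and for 6.17% of all probes. All 3 were lower, namely Dlgap2 (-0.60, standard error 0.26, p = 0.0263 by limma), a postsynaptic scaffold gene, Plcb1 (-0.49, p = 0.0404 by limma), the phospholipase C that Gq activates, and Trpc4 (-0.46, p = 0.0219 by limma), a cation channel. Grasp (-0.51), whose product binds group I mGluRs and cytohesins, and Dlgap1 (-0.44) completed the 5 lowest, and the highest were the ryanodine receptor gene Ryr1 and the ubiquitin ligase gene Siah1a, at 0.17 each, Cacna1c (0.13), Ryr2 (0.11) and Cyth2 (0.05).

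In Per3 4/4, 22 of the 35 were below 0, against 48.3% of all probes, with a median of -0.05 and 0 at an unadjusted p under 0.05 in either direction. The lowest were Grasp (-0.41), Prkca (-0.28), Dlgap3 (-0.27), Shank1 and Cyth2 (-0.22 each), and the highest Dagla (0.26), Gnaq (0.25), Itpr2 (0.18), Trpc4 (0.13) and Ryr3 (0.12). Without WT replicate 10, 17 of 35 were below 0 and the median was 0.00236. Without Per3 4/4 replicates 6 and 7, 22 of 35 were below 0, the median was -0.08, and 2 had an unadjusted p under 0.05, both higher. Over all probes, 1807 of 29947 then had such a p, against 519 with all arrays. Of the mGluR genes outside group I, 5 of 6 were tested and none passed. In Per3 5/5 Grm8 (0.39, standard error 0.16, p = 0.0193, adjusted p = 0.796 by limma) and Grm4 (0.45) lay above 0 and Grm2 (-0.36), Grm7 (-0.20) and Grm3 (-0.05) below it, and in Per3 4/4 the 5 lay between -0.09 and 0.10.

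The activity-regulated genes, among which Homer1 was not listed, also lay lower in Per3 5/5, at 21 of 23 with a median of -0.19, against 54.5% of all probes. Here too 0 passed by limma, and 3 had an unadjusted p under 0.05, against 6.17% of all probes. With WT replicate 10 and Per3 4/4 replicates 6 and 7 left out there were 5, against 2138 of all 29947 probes in that fit. The 3 were lower, namely Egr3 (-1.50, standard error 0.71, p = 0.0441 by limma), Egr4 (-1.30, standard error 0.54, p = 0.0229 by limma) and Arc (-0.85, standard error 0.40, p = 0.0438 by limma). Ptgs2 (-1.15) and Npas4 (-0.95) were the others of the 5 lowest, and Rgs2 (0.31), Nptx2 (0.06), Bdnf (-0.06), Dusp1 and Nr4a2 (-0.08 each) the 5 highest. Over both runs Ptgs2 was well above background on only 16 arrays and Npas4 on 24, so part of the values of these 2 genes lie near background. In Per3 4/4, 18 of 23 were below 0, against 48.3% of all probes, with a median of -0.23. The lowest were Egr1 (-0.65), Fosb and Nr4a1 (-0.63 each), Junb (-0.60) and Fos (-0.57), and the highest Ptgs2 (0.24), Bdnf (0.11), Sik1 (0.09), Rgs2 (0.06) and Gadd45g (0.03). By limma 0 passed and 2 had an unadjusted p under 0.05, Fosb (p = 0.0267) and Ier2 (p = 0.0228), against 1.73% of all probes. Their count below 0 without WT replicate 10 was 12 of 23 and the median -0.02, and without Per3 4/4 replicates 6 and 7 they were 16 of 23 and -0.23.

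Markers of other cells and of neighbouring tissue were read beside these values. In Per3 5/5 cortical and hippocampal markers lay below 0 at 8 of 8 genes with a median of -0.34, thalamic ones had a median of 0.16, striatal ones -0.05, hypothalamic ones 0.25 and astrocyte, oligodendrocyte and microglial or endothelial ones -0.21, -0.14 and -0.07. Choroid plexus markers lay below 0 at 7 of 7 in Per3 5/5 (median -0.74) and above 0 at 7 of 7 in Per3 4/4 (median 0.99, or 0.68 without WT replicate 10). In Per3 4/4 the median was -0.27 for cortical and hippocampal, -0.32 for striatal, 0.32 for thalamic and 0.36 for hypothalamic markers, and without WT replicate 10 these medians were 0.06, -0.15, -0.00 and 0.02. Cerebellar and pituitary markers had medians of 0.13 and 0.35 in Per3 5/5 and -0.24 and -0.80 in Per3 4/4. Without Per3 4/4 replicates 6 and 7 the Per3 4/4 median was 1.39 for choroid plexus markers, of which 6 of 7 rather than 2 then had an unadjusted p under 0.05, and -0.11 for cerebellar ones. Over all probes, 1807 of 29947 had such a p without these replicates and 519 with all arrays. No gene of these lists passed by limma, while Neurod6 and Rasgrp2 in Per3 5/5 and Pde10a, Kl and Clic6 in Per3 4/4 had an unadjusted p under 0.05, and their part in the differences of Homer1, Homer2, Homer3 and Grm5 was not tested.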

How the data were processed

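Hypothalamic RNA was hybridized as Cy3-labelled cRNA to 1-colour Agilent arrays. The authors deposited, per the file headers, the intensity of each spot from Feature Extraction 10.7.1.1 (background subtracted, with no scaling from array to array). Their own log2 table, also deposited, served as an alternative only. Control and outlier spots were left out, intensities were converted to log2, the 75th percentile of each array was subtracted and spots of a probe were averaged. Probes entered the tests if no more arrays lacked than showed signal well above background in 1 genotype or more (29947 of 41174). The methods' rank product was not run here. Linear models with genotype and run used limma 3.58.1 (R 4.3.3) over 30 arrays, with Benjamini-Hochberg adjustment over all probes tested, and the code was tested on simulated data. Permutation tests used scipy 1.17.1 (100000 resamples within groups for correlations).

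The members and gene lists were chosen with earlier results of these data known. Named were all member probes, the 5 highest and 5 lowest genes per list and comparison, and the 5 probes most like each Homer1 probe and the brightest probe of the other members; results for 2 genes under this rule are not reported here. Of 140 listed genes 137 had a probe, each gene being read by its brightest one. The slide was taken from the scan identifier. Replicate numbers did not pair the samples (7 pairs, r -0.28 to 0.40). Alternatives were fits on 1 run, replicate and slide blocks, normexp (offset 50, on medians since run 2 holds no means), quantile and other percentile scaling, the authors' table, no filter or a stricter one, outlier spots kept, array weights, trended robust variances, the methods' t-test and left-out arrays.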

Additional observations from a re-analysis of the deposited data

Results flagged for a closer look

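Of 48 sets of 1 probe and 1 group, 8 held a mouse that lay apart from the others by Dixon's criterion at the 95% level, which chance alone gives in about 1 of 20 sets. WT replicate 10 of run 2 gave 4 of them, and all 4 were high values. It read -1.49 at Homer1 A_51_P387160 (others -3.68 to -2.69), -0.23 at Homer1 A_52_P37991 (others -4.26 to -3.18), 1.08 at Homer1 A_52_P151211 (others -1.47 to -0.30) and 1.495 at Homer2 A_51_P352303 (others -0.11 to 0.61). The same array was the highest of its group in the mean level of the activity-regulated genes (0.92, next -0.65).

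The other 4 belonged to different mice. Per3 5/5 replicate 3 read -0.70 at Homer1 A_52_P151211 (others -1.53 to -1.20) and was also the highest of its group in the activity-regulated genes (-0.57, next -1.001). At Grm5 A_52_P675611, Per3 4/4 replicate 8 read -1.37 (others -2.13 to -1.86) and WT replicate 1 read -0.33 (others -1.09 to -0.81). WT replicate 13 read -1.81 at Grm5 A_51_P333441 (others -2.42 to -2.16).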

How the results depend on the processing

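No member probe passed in either comparison, or in the difference of the knock-in effects, under any of the 16 alternatives or with any of the 30 arrays left out where it was fitted (smallest adjusted p against WT 0.117). Homer1 stayed below 0 in Per3 5/5 throughout, between -0.62 and -0.44 at A_51_P387159, -0.54 and -0.37 at A_51_P387160, -0.84 and -0.61 at A_52_P37991 and -0.20 and -0.13 at A_52_P151211 over the alternatives, and between -0.998 and -0.13 over all 4 with single arrays left out. In Per3 4/4 A_51_P387159 and A_51_P387160 stayed below 0 as well, between -0.56 and -0.0436 and between -0.51 and -0.0601 over the alternatives (-0.32 and -0.33 as reported), and the values named below turned sign, of which the cause was not tested.

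In Per3 5/5, normexp background correction turned Grm5 A_52_P675611 to 0.0282, and array weights turned Homer3 to 0.00299 and Grm5 A_52_P675611, A_52_P181394 and A_51_P333441 to 0.12, 0.13 and 0.0926. Array weights also brought Homer2 A_52_P343298 to -0.0359 and A_51_P352303 to -0.12. In Per3 4/4, Homer2 A_52_P343298 turned to 0.0359 with normexp and 0.00192 with quantile normalization. Array weights there gave 0.14 and 0.16 at Homer1 A_52_P37991 and A_52_P151211, and 0.26, 0.0900 and 0.13 at Homer2 A_52_P343298, A_51_P352303 and A_52_P176573. Without Per3 4/4 replicates 6 and 7, Homer1 A_52_P151211 was 0.0336 and Homer2 A_52_P343298 and A_52_P176573 were 0.0125 and 0.0852. With WT replicate 10 left out besides these, an alternative chosen after seeing the data, Homer1 A_52_P37991 and A_52_P151211 were both 0.29 and the 3 Homer2 probes 0.11, 0.10 and 0.25.

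With single arrays left out, the Per3 5/5 differences ranged from -0.0699 to 0.0487 at Grm5 A_52_P181394, from -0.0576 to 0.0632 at A_51_P333441 and from -0.0880 to 0.0442 at A_52_P675611. Those of Per3 4/4 ranged from -0.47 to 0.11 at Homer1 A_52_P37991, from -0.19 to 0.18 at A_52_P151211, and from -0.15 to 0.15, -0.19 to 0.0420 and -0.21 to 0.14 at Homer2 A_52_P343298, A_51_P352303 and A_52_P176573. The within-array difference between the sides of Homer1 in Per3 5/5 ranged from -0.20 to 0.10.

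The replicate numbers of the labels are numbers only, since 2 of 7 pairs had a correlation of deviations above 0.1. With the replicate block 0 member probes passed, and over all probes 0, 93 and 47 passed in Per3 5/5, Per3 4/4 and the difference of effects (0, 4 and 0 without it). Per3 4/4 and the WT mice of run 2 share 1 number, so few of their mice are compared directly under the block. Values turned to 0.68, 0.0874 and 0.46 at the Homer2 probes and to 0.38 and 0.15 at Grm5 A_52_P675611 and A_52_P181394. Over all probes in Per3 4/4, 9 passed with the slide as a random block or with array weights, 8 with trended robust variances or with the 3 arrays left out, 7 with normexp, a stricter filter, outlier spots kept or without replicates 6 and 7, and 0 on the run alone or by the methods' t-test. In Per3 5/5, 11 passed with array weights.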
